A study of Mus musculus with 3 samples.

Results

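Ser5-phosphorylated Pol_II was followed at 8 genes that encode histone methylation enzymes, out of 22350 protein-coding genes on chromosomes 1 to 19 and X. The genes are Kdm6b (also called Jmjd3), Kdm6a, Kdm2b, Kdm4a, Kdm5b, Kdm5c, Ezh1 and Ezh2. They were taken by name and not by a measured value, though with earlier results of these data known. All 8 were found under these symbols in the GENCODE M1 annotation of the mm9 genome. The cells were macrophages grown from the bone marrow of female Fvb mice (Fvb/Hsd in the study's methods) in medium conditioned by L929 cells, and they were used on day 7 of differentiation. ChIP-Seq, which sequences DNA pulled down with an antibody from cross-linked chromatin, was carried out with antibody ab5131 against the Ser5-phosphorylated repeat of the large Pol_II subunit, which marks polymerase that has begun a transcript. A first Ser5 library came from untreated cells and a second from cells given 10 ng/ml LPS (lipopolysaccharide, a bacterial membrane component that activates macrophages) for 2 h. Input DNA, chromatin sequenced without the antibody, came from untreated cells, so the LPS library has no input of its own. The sample labels name LPS alone for the stimulated cells, whereas the study describes its other Pol_II datasets as LPS together with interferon gamma.

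Histone tails are methylated by enzymes that add methyl groups to single lysines and demethylated by enzymes that take them off. EZH1 and EZH2, the catalytic subunits of Polycomb repressive complex PRC2, methylate lysine 27 of histone H3, a mark of silent genes, and the JmjC-domain enzymes KDM6A and KDM6B remove it. KDM5B and KDM5C remove methyl groups from lysine 4 of H3, KDM4A from lysines 9 and 36, and KDM2B from lysine 36 and, with its zinc finger on unmethylated CpG DNA, brings a variant PRC1 complex to CpG islands. Kdm6b is known in macrophages as a gene whose messenger RNA rises after LPS.

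Tags were counted by their 5′ end over the whole gene (the gene body) and within 1 kb of the main transcription start site (TSS), the start of the coding transcript with the longest coding sequence. The libraries held 7616771 (untreated Ser5), 6249819 (LPS Ser5) and 7533308 (input) tags, and a ratio compares tags divided by these totals, while a density is the number of normalised tags per kb, that is, tags per kb for every 1000000 tags of the library. There was 1 library per condition, so no test was made, and each 95% interval covers counting error only. Tags were 45 bases long in the untreated library, 30 in the LPS library and 36 in input, and 81.4% to 84.5% of tags lay at distinct positions. Genes whose induction by LPS is well known were far higher in the library labelled LPS. Ccl5 went from 24 to 7803 tags, Il1b from 35 to 1277 and Cxcl10 from 55 to 4019, while Tnf and Nfkbia were 9.62 and 6.17 times higher. The 6 macrophage markers had body densities of 1.94 to 105 normalised tags per kb in untreated cells and 0.445 to 42.6 after LPS, when Csf1r, Itgam, Cd68 and Lyz2 were at least 2 times lower and Emr1 higher, and the part of this in the values of the enzyme genes was not tested. The 3 T cell, 3 fibroblast and 4 liver, muscle, pancreas or skin markers stayed at or below 0.265 in both Ser5 libraries, against 0.152 to 0.660 in input, while the 3 B cell markers reached 0.927 and the 3 endothelial ones 0.768.

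Stretches of DNA at which the Ser5 signal of 4 of the genes was found are shown first, because the results below turn on which of several starts or peaks carried Pol_II. Each is the strand of the gene, 5′ to 3′, from mm9, lies outside annotated exons, and was searched on both strands for the TATA box TATAAA, the CCAAT box, the GC box GGGCGG, the E-box CACGTG, the AP-1 motif TGACTCA, the cyclic AMP element (CRE) TGACGTCA, the PU.1 motif GAGGAAGT, the STAT motif TTCNNNGAA and the kappa B motif in a narrow form and a wide form that includes it. Capitals mark every match. The stretches of Ezh2, Kdm4a and the internal start of Kdm2b come from RefSeq promoters (GRCm38.p6) placed in mm9 by exact match, with Ezh2 cut where an annotated exon begins. The other Kdm2b stretch lies inside the gene record, between the start of a Kdm2b transcript near the main TSS and that of a divergent noncoding gene, and those of Kdm6b are the 250 bases with most untreated tags in its peaks, so they were chosen from the signal.
Kdm6b intron 1, chr11:69224752-69225001, minus strand: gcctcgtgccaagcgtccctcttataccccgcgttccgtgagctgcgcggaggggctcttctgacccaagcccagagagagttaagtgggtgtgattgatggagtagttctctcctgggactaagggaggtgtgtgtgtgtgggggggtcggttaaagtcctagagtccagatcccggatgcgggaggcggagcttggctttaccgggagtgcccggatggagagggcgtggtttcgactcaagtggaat
Kdm6b upstream, chr11:69231484-69231733, minus strand: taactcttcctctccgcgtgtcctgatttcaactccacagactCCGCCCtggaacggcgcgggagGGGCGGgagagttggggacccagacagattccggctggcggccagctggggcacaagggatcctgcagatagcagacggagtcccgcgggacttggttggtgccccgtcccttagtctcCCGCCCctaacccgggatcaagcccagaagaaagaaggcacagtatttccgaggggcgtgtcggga
Kdm2b gap to the divergent gene, chr5:123439316-123439362, minus strand: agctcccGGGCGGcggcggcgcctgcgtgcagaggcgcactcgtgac
Kdm2b internal start, chr5:123350377-123350626, minus strand: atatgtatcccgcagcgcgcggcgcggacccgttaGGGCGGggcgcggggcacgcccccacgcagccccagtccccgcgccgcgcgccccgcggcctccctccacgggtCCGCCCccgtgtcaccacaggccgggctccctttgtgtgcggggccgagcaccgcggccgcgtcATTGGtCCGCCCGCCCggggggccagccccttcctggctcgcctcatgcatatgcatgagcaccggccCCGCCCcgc
Ezh2, chr6:47545030-47545182, minus strand: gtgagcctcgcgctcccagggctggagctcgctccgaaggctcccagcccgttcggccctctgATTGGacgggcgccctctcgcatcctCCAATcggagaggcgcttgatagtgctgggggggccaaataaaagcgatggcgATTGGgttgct
Kdm4a, chr4:117852649-117852898, minus strand: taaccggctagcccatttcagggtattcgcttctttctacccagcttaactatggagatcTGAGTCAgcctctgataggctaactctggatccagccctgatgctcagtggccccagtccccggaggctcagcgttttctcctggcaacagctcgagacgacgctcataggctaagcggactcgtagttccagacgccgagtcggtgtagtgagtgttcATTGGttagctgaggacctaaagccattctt

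The Kdm2b stretches held 1 GC box in the gap and 5 GC boxes with 1 CCAAT box at the internal start, the Ezh2 stretch 3 CCAAT boxes, and the Kdm4a stretch 1 CCAAT box and 1 AP-1 match. The intron 1 stretch of Kdm6b held none of the letters searched, and its upstream stretch held 3 GC boxes. Among the 32817 promoters of the RefSeq table, 33.8% held a CCAAT box, 32.7% a GC box and 4.46% an AP-1 match in their 250 upstream bases, against 25.7%, 19.04% and 6.22% of the same length at the centre of 53466 untreated Ser5 peaks. RefSeq promoters were found for 7 of the 8 genes, 10 promoters in all, and Kdm6b had no entry. CCAAT boxes occurred in 5 of the 10, GC boxes in 5, an AP-1 match in 2 and an E-box in 1, while none held a TATA box, CRE, kappa B, PU.1 or STAT match. Of all promoters 6.02% held an E-box, 12.4% a TATA box, 7.02% a STAT, 2.44% a PU.1, 1.55% a CRE and 1.41% a wide kappa B match. The 2 promoters at the internal start of Kdm2b overlap almost wholly and are not separate sequences. GC content over the 300 bases of each promoter ran from 47.0% for Kdm5c to 81.7% at the internal start of Kdm2b, and the median of all promoters was 52.7%.

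Which of the enzyme genes gained or lost Ser5 Pol_II after LPS was asked first. None of the 8 was at least 2 times higher over the gene body after LPS, against 5.83% of 17386 coding genes with at least 10 Ser5 tags, and none at least 2 times lower, against 11.3%. Kdm4a had the highest body ratio of LPS to untreated, 1.70, and Kdm2b the lowest, 0.535. In the TSS window none was at least 2 times higher, against 5.70% of 12580 coding genes, and 2 were at least 2 times lower, Kdm2b and Kdm6b, against 14.0%. The Kdm6b call was lost with windows of 500 bp and 2 kb each side (0.522 and 0.517), and that of Kdm2b with the 5′ end of its record as start (0.830). The median ratio of the 8 genes was 1.01 over the body and 0.991 in the TSS window, where the medians of all coding genes tested were 0.874 and 0.834.

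**Figure D1:**
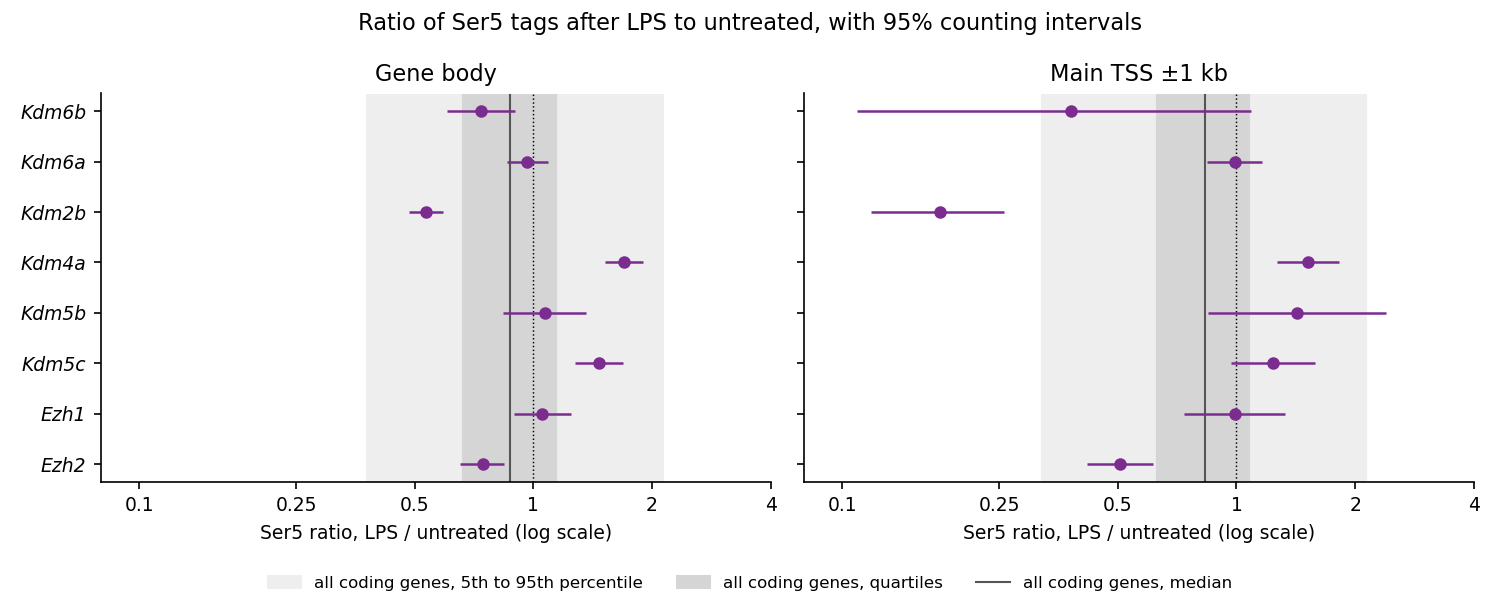
Ratio of normalised Ser5 tags after LPS to untreated (x axis, log scale) for each gene, over the gene body on the left and within 1 kb of the main TSS on the right. Points are ratios and bars 95% counting intervals, the shading shows where all coding genes fall, and Kdm2b lies furthest to the left in both panels, at 0.535 and 0.177.

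Relative to the all-gene median, the body ratio was 1.94 times that median for Kdm4a, 1.68 for Kdm5c, 1.22 for Kdm5b, 1.21 for Ezh1 and 1.105 for Kdm6a. It was 0.850 times the median for Ezh2, 0.844 for Kdm6b and 0.612 for Kdm2b. The choice of scale does not alter this order, since it moves every ratio and the median alike. It does alter where a ratio lies against 1. With libraries scaled to the tags outside all peaks, the body median of all genes moved from -0.19 to -0.09 on the log2 scale. Kdm6a, at 0.965 over the body, then passed to 1.04, so no direction is given for it. A lower share of tags can stem from fewer cells with Pol_II on the gene or from less Pol_II in each, which cannot be told apart here.

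Densities per kb allowed the genes to be compared with each other. Over the gene body of untreated cells Kdm6b was highest at 2.30 normalised tags per kb (2.03 to 2.60), followed by Kdm4a at 1.70 (1.56 to 1.84). Ezh2 at 1.29, Kdm2b at 1.18, Ezh1 at 1.16 and Kdm5c at 1.15 came next, with overlapping counting intervals, and then Kdm6a at 0.684 and Kdm5b at 0.265. After LPS Kdm4a was highest at 2.88, and Kdm6b at 1.70 and Kdm5c at 1.68 were not separated by counting error. Ezh1 followed at 1.23, Ezh2 at 0.957, Kdm6a at 0.660, Kdm2b at 0.630 (intervals overlapping those of Kdm6a) and Kdm5b at 0.284. These densities are not divided by input, which was also highest for Kdm6b, at 0.858 against 0.555 for Kdm4a. Relative to input, untreated Kdm4a was 3.06 (2.58 to 3.64) and Kdm6b 2.685 (2.12 to 3.42), with overlapping intervals. After LPS Kdm4a was 5.20 times input, Kdm5c 2.34, Ezh1 2.04 and Kdm6b 1.98, the last 3 with overlapping intervals. In the TSS window the order was another one. Ezh2 at 24.7 and Kdm6a at 22.5 led in untreated cells, with overlapping intervals, whereas Kdm6b had the lowest value, 1.05.

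**Figure D2:**
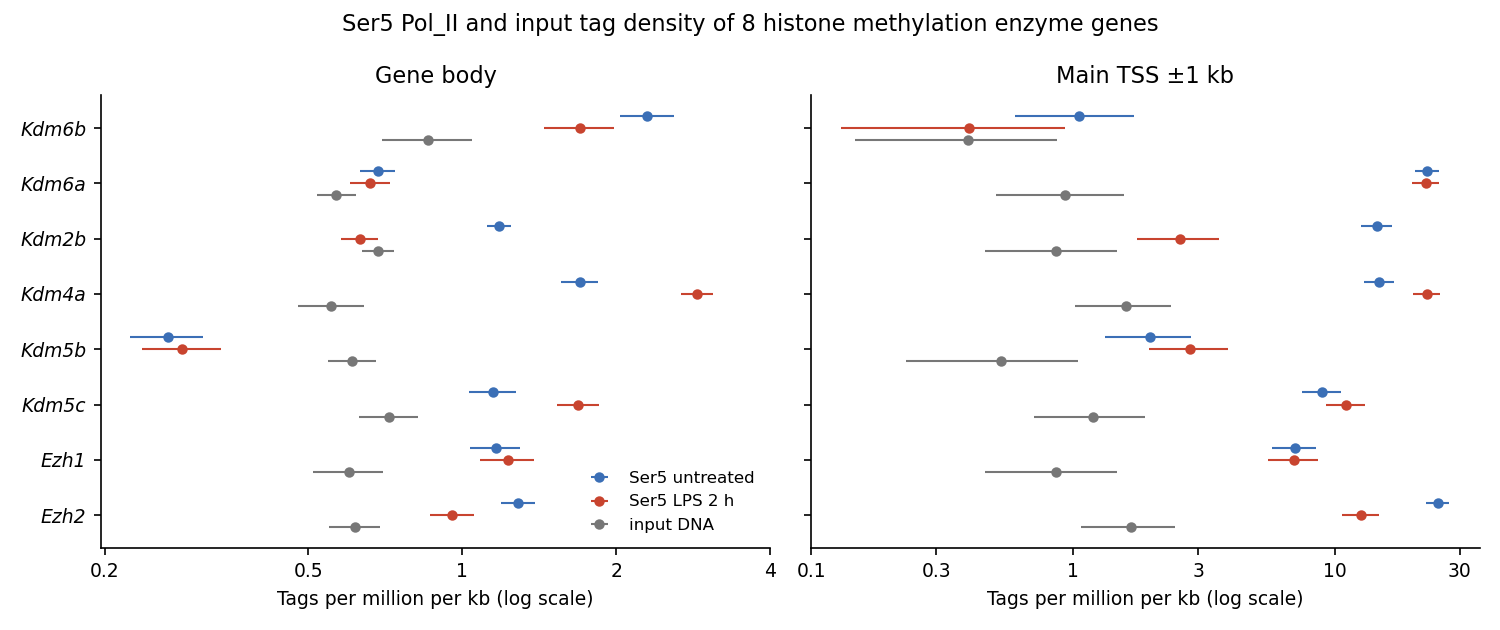
Normalised tags per kb (tags per kb for every 1000000 tags) (x axis, log scale) of the 8 genes in untreated Ser5, Ser5 after LPS and input, over the gene body on the left and within 1 kb of the main TSS on the right, with 95% counting intervals as bars. At the TSS the LPS value of Kdm6b, 0.400, sits on its input of 0.398 on this scale and the other 7 genes stand to the right of input in both Ser5 libraries, and the body of Kdm5b lies to the left of its input.

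A deposited Ser5 peak lay in the TSS window of 7 of the 8 genes in untreated cells and of 7 after LPS, Kdm6b being the exception in both lists, against 47.9% and 45.9% of all 22350 coding genes. Seen against input, the same 7 genes had TSS ratios of 3.71 to 24.2 in untreated cells and 2.97 to 24.0 after LPS. Over the whole genes 33 peaks were listed for untreated cells and 36 after LPS, and 22 (66.7%) of the first and 20 (55.6%) of the second met a peak called in the opposite condition, against 54.3% of all 53467 untreated peaks and 56.6% of all 49371 LPS peaks. In these 7 genes the first kb held 7.79% to 30.6% of untreated body tags and 2.64% to 25.8% of those after LPS, against 0.402% to 7.22% of input tags.

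Kdm6b (chr11:69212010-69227177, minus strand, 15.2 kb) removes methyl groups from H3 lysine 27. Its body held 266 untreated tags, 161 after LPS and 98 in input, or 2.30, 1.70 and 0.858 normalised tags per kb. LPS over untreated gave 0.738 (0.603 to 0.901). The share of tags was thus lower after LPS beyond counting error, by less than the rule of size. The median of all coding genes tested, 0.874, lay inside this interval, so Kdm6b was not separated from the typical gene. At the annotated start there were 16 untreated tags, 5 after LPS and 6 in input, a ratio of LPS to untreated of 0.381 (0.109 to 1.09) from few tags. Its level there after LPS was 1.00 times that of input (0.243 to 3.95), and no Ser5 peak was called. Scaled to tags outside peaks the start was 2.07 times input (0.499 to 8.14) after LPS and 5.05 times (1.88 to 15.7) in untreated cells, so the untreated start then lay above input.

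The Pol_II signal of Kdm6b sat instead inside intron 1, which is 4.75 kb long and separates a short exon 1 from the rest of the gene. This intron held 173 untreated tags, 95 after LPS and 41 in input, and it carried the 3 untreated and 2 LPS peaks of the gene, which together span 2.10 to 5.14 kb downstream of the annotated start and reach into exon 2. Over this peak region there were 166, 92 and 26 tags, or 6.31 times input in untreated cells and 4.27 times input after LPS. LPS over untreated gave 0.675 (0.518 to 0.877) in the peak region. The region is drawn from peaks called over this same input, so its excess over input is given as a description. Past it the signal was lower, which follows from the same choice. From exon 3 to the gene end 77, 57 and 56 tags gave 1.36 times input (0.951 to 1.95) in untreated cells and 1.23 (0.833 to 1.81) after LPS, with a ratio of LPS to untreated of 0.902 (0.629 to 1.29). Scaled to tags outside peaks, an alternative added after seeing the data, the same stretch was 2.60 times input (1.82 to 3.74) before and 2.53 times (1.72 to 3.72) after LPS and the peak region 12.1 and 8.78 times, so whether the stretch past the peaks lay above input depended on the scale. The intron 1 stretch printed above, 2.18 to 2.43 kb into the gene, held 26 untreated tags, 10 after LPS and 2 in input. It was picked for its untreated tags, so these counts are also a description.

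**Figure D3:**
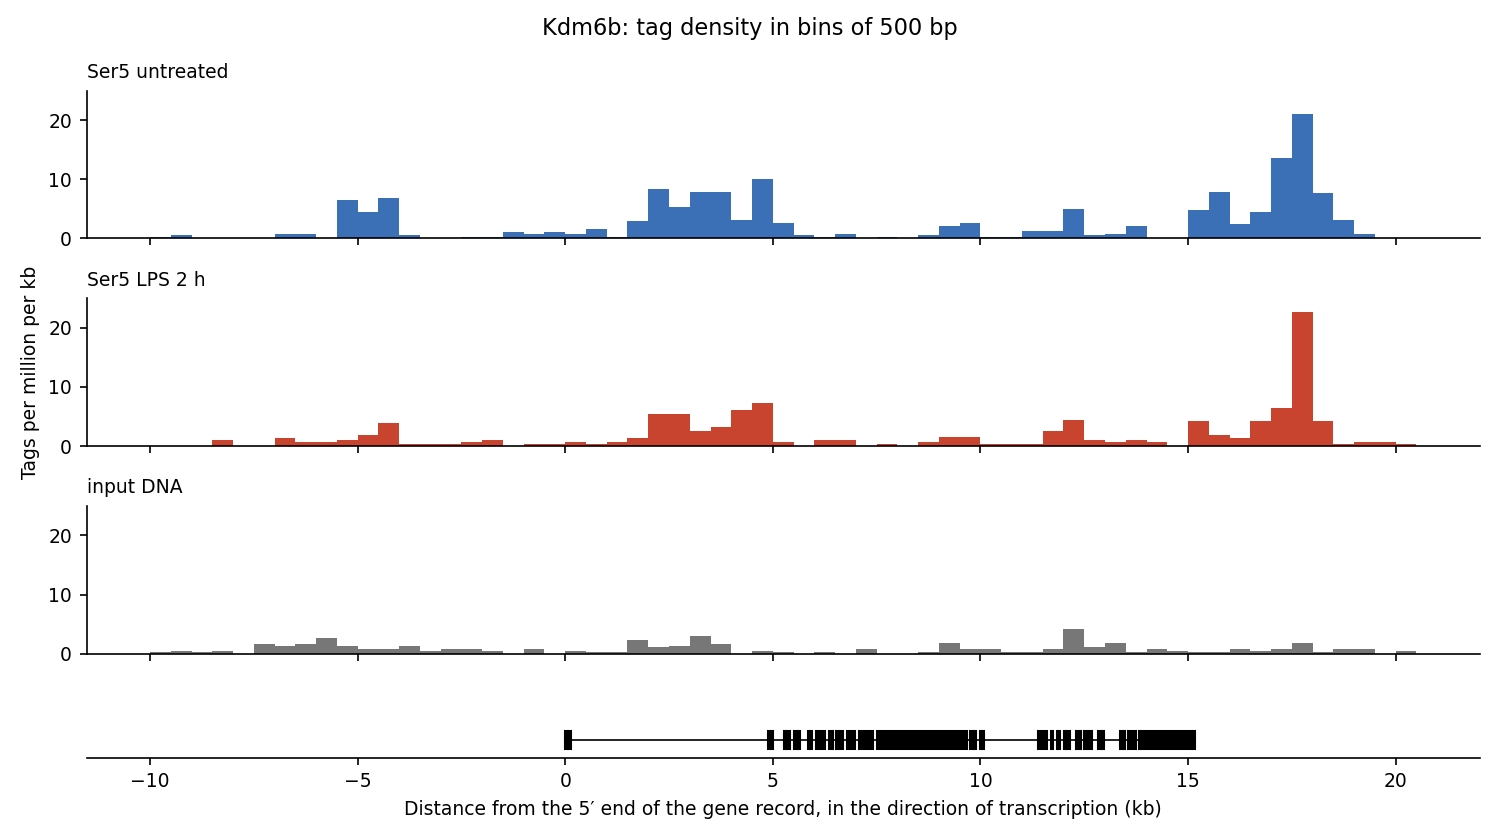
Normalised tags per kb (tags per kb for every 1000000 tags) in bins of 500 bp along Kdm6b for untreated Ser5, Ser5 after LPS and input, with the exons of the main transcript as boxes; the x axis is the distance from the 5′ end of the gene in kb and the 3 y axes share 1 scale. Ser5 tags gather between 2.10 and 5.14 kb and again upstream of the gene, and few lie at position 0; those past the gene end lie in Tmem88 and Lsmd1.

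Upstream of Kdm6b, 3.91 to 5.42 kb before its annotated start and in no gene record, lay 2 further untreated peaks and 1 LPS peak. This stretch held 68 untreated tags, 22 after LPS and 9 in input, and LPS over untreated gave 0.394 (0.232 to 0.646). It was chosen from the untreated peaks, so its fall after LPS is given as a description. The 2 kb past the gene end held 76, 37 and 9 tags with a ratio of 0.593 (0.389 to 0.890), but most of that stretch belongs to the next gene, Tmem88. The tags carry no strand of transcription, so signal of neighbouring and overlapping genes cannot be assigned to one of them.

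Among the genes within 20 kb of Kdm6b, Tmem88 had 67 untreated and 29 LPS body tags, a ratio of 0.528 (0.329 to 0.827). Cyb5d1 went from 45 to 19 tags, 0.515 (0.284 to 0.898), and Lsmd1, whose start overlaps it on the other strand, from 141 to 96, 0.830 (0.633 to 1.083). Dnahc2, an axonemal dynein gene on the far side of the upstream peaks, had 0.141 and 0.150 normalised tags per kb, below its input of 0.506. The noncoding 1700064E03Rik, inside Kdm6b on the other strand, had 21 and 13 tags, 0.754 (0.347 to 1.58). All of these neighbours other than Dnahc2 had a ratio below 1, of which the interval lay below 1 for Tmem88 and Cyb5d1. The median of all coding genes tested was also below 1, at 0.874, and the interval of Cyb5d1 took it in. The record of Lsmd1 overlaps those of Cyb5d1 and Tmem88, so their tags are partly shared.

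By Euclidean distance over the 4 log2 densities (body and TSS window in both Ser5 libraries), the coding genes most like Kdm6b among 12605 with at least 100 body tags were Sin3a, Star, 4930595D18Rik, Accn3 and Gcnt7, at distances of 0.50 to 0.77. By this choice they have a body signal with little at the main TSS. Sin3a, a corepressor scaffold gene, had 1047 untreated and 648 LPS body tags and 14 and 7 tags in its TSS window, and Gcnt7 had a body ratio of 1.02 while the other 4 lay between 0.699 and 0.754.

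Kdm6a (chrX:17739701-17857062, plus strand, 117 kb), the X-linked enzyme for the same lysine, had its signal at the annotated start. The TSS window held 343 untreated tags, 279 after LPS and 14 in input, 22.5, 22.3 and 0.929 normalised tags per kb. Untreated and LPS values thus differed by less than counting error, with a ratio of 0.991 (0.843 to 1.16). The body held 611, 484 and 502 tags, a ratio of 0.965 (0.855 to 1.09). Beyond the first kb the density was 0.937 times input in untreated cells when all tags set the scale and 1.79 times input when tags outside peaks did, so no direction against input is given there. Both H3 lysine 27 demethylase genes thus lacked a rise of 2 times, and they differed in place, with Ser5 at the annotated start of Kdm6a and downstream of that of Kdm6b.

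Ezh2 (chr6:47480273-47545340, minus strand, 65.1 kb), the PRC2 methyltransferase of dividing cells, had the highest TSS density of the 8 genes in untreated cells. Its TSS window held 377 untreated tags, 157 after LPS and 25 in input, or 24.7, 12.6 and 1.66 normalised tags per kb. LPS over untreated gave 0.508 (0.419 to 0.613), just short of the limit of 0.5 used for a call, and the window was 14.9 times input before and 7.57 times after LPS. In the printed 153 bases before its main start 77, 34 and 0 tags were counted. The body went from 638 to 389 tags, with 302 in input, a ratio of 0.743 (0.653 to 0.844). Beyond the first kb the ratio was 0.864 and its interval, 0.734 to 1.02, took in 1 and did not overlap that of the TSS window. The noncoding Gm17629 inside Ezh2 had 30 and 17 tags, 0.691 (0.357 to 1.29).

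Ezh1 (chr11:101052429-101087777, minus strand, 35.3 kb), the paralogue that is typical of resting cells, showed no such difference. Its TSS window held 107 untreated tags, 87 after LPS and 13 in input, a ratio of 0.991 (0.738 to 1.33), and its body 313, 271 and 160 tags, 1.06 (0.893 to 1.25). The counting intervals of the TSS ratios of Ezh1 and Ezh2 did not overlap. In the TSS window of Ezh1 23.2% of 30-base sequences occur more than once in mm9, where the aligner kept only unique matches, so tags are missing there.

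Kdm2b (chr5:123320677-123465089, minus strand, 144 kb) was lowest relative to untreated in both measures. Its 23 annotated transcripts begin at 16 starts, some with overlapping windows, and 6 of these windows held an untreated peak. The ratios at the starts with an untreated peak were not alike, and the tags at the 5′ end of the record are shared with Orai1. Over the body there were 1297 untreated tags, 569 after LPS and 746 in input, a ratio of 0.535 (0.484 to 0.591). After LPS the body density, 0.630 normalised tags per kb, was 0.919 times that of input (0.823 to 1.03), where it had been 1.72 times input in untreated cells. Scaled to tags outside peaks the LPS body was 1.89 times input, so no direction against input is given for it. The main TSS, 26.0 kb downstream of the 5′ end of the gene record, was far lower after LPS. There 220 untreated tags compared with 32 after LPS and 13 in input, a ratio of 0.177 (0.118 to 0.258), or 0.212 times the median of all coding genes. The LPS value was still 2.97 times input (1.52 to 6.16), and the 2 untreated peaks became 1 LPS peak. With a window of 2 kb each side the LPS value was 1.32 times input (0.793 to 2.20), so its separation from input depended on the window.

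At the annotated start 26544 bp into the record, whose window overlaps that of the main TSS, 210 untreated tags compared with 27 after LPS, 0.157 (0.101 to 0.235). The start at the 5′ end of the record and the internal start were lower by less. At the 5′ end of the gene record, which is also the start of the divergent gene Orai1 (a subunit of a calcium channel of the plasma membrane), 348 untreated tags compared with 237 after LPS and 15 in input. The ratio of 0.830 (0.701 to 0.982) had an interval that took in 1 with 1 tag per position and with scaling outside peaks, at 0.897 and 0.894. At the internal start 114725 bp into the gene, shown above as the CpG-rich stretch with 5 GC boxes, there were 111, 60 and 12 tags, 0.659 (0.473 to 0.910). At a minor coding start 62574 bp into the gene, 47 untreated tags fell to 12 after LPS against 15 in input, 0.311 (0.150 to 0.596). Its window held an untreated peak only. That peak covers a noncoding start 63090 bp into the gene, whose overlapping window held 44 and 14 tags, 0.388 (0.196 to 0.721). The interval of the main TSS ratio thus overlapped neither that of the 5′ end nor that of the internal start.

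**Figure D4:**
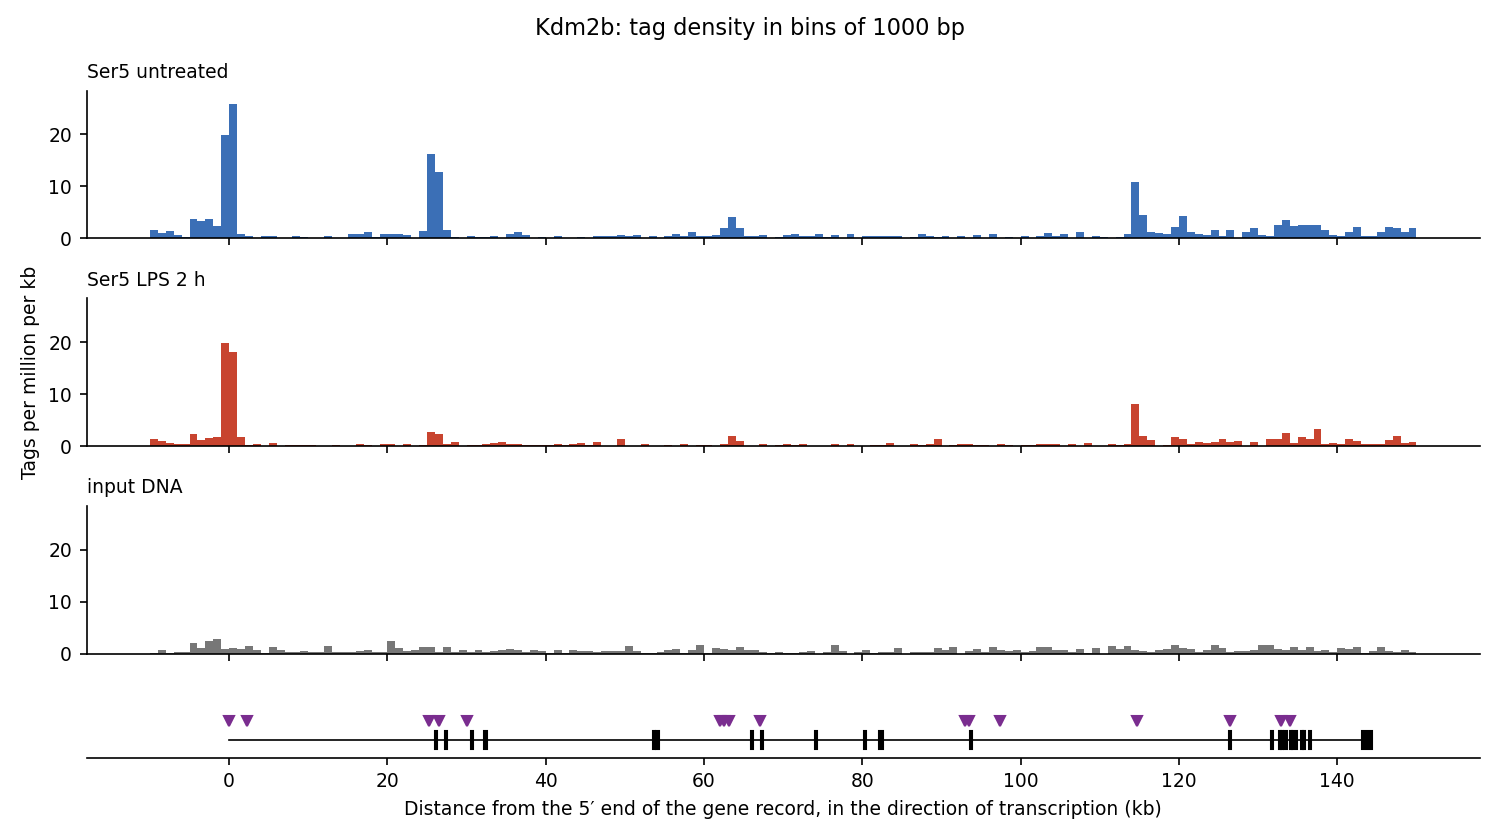
Normalised tags per kb (tags per kb for every 1000000 tags) in bins of 1 kb along Kdm2b for untreated Ser5, Ser5 after LPS and input, on 1 shared y scale, against distance from the 5′ end of the gene record in kb; boxes are exons of the main transcript and triangles the 16 annotated starts. The signal at 26.0 kb is much smaller after LPS, with 220 untreated and 32 LPS tags at the main TSS, a ratio of 0.177. That at 0, where Orai1 also starts, and that near 115 kb are lower by less, with ratios of 0.830 and 0.659.

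The noncoding gene A930024E05Rik starts close to the main TSS of Kdm2b and runs the other way, the gap between its start and that of the nearest Kdm2b transcript being the 47 bases printed above. Its body went from 90 to 15 tags, with 66 in input, a ratio of 0.203 (0.109 to 0.353). This body begins inside the TSS window of Kdm2b, so part of its tags are the same. In untreated cells it was 1.35 times input (0.971 to 1.88), not separated from input by counting error. The window around the start of A930024E05Rik largely covers the same DNA as the Kdm2b window, and its ratio of 0.177 is no separate measurement. Orai1 itself had 390 untreated and 242 LPS tags over its body, 0.756 (0.642 to 0.890).

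Kdm4a (chr4:117809562-117852648, minus strand, 43.1 kb), a demethylase of H3 lysines 9 and 36, was the gene of the 8 with the highest Ser5 ratio after LPS. Its body held 557 untreated tags, 776 after LPS and 180 in input, a ratio of 1.70 (1.52 to 1.90), and the TSS window 225, 280 and 24 tags, 1.52 (1.27 to 1.82). Intron 1 reached 2.02 times the untreated value (1.60 to 2.55), from 119 to 197 tags. Exon 2 to the gene end rose from 418 to 563 tags, 1.64 (1.44 to 1.87), and the 2 kb past the gene end from 135 to 181, 1.63 (1.30 to 2.06). The 2 kb past the gene end held 8.86 and 14.5 normalised tags per kb, against 1.35 and 2.22 from exon 2 to the gene end. Genes flanking Kdm4a were not looked up, so the signal past its end cannot be assigned to Kdm4a. The higher value thus held in each of the stretches within the gene. The body was 3.06 times input in untreated cells and 5.20 times after LPS. The deposited lists held 5 peaks over it before and 10 after LPS, 3 of them shared in each list. In the 250 bases printed above, which end at its annotated start, the tags were 80 and 75, a ratio of 1.14 (0.823 to 1.59).

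Kdm5c (chrX:148667563-148709078, plus strand, 41.5 kb), an X-linked H3 lysine 4 demethylase, was also higher after LPS over its body. Its body held 363 untreated tags, 437 after LPS and 225 in input, a ratio of 1.47 (1.27 to 1.69). The TSS window held 136, 138 and 18 tags, a ratio of 1.24 whose interval, 0.969 to 1.58, took in 1. From exon 2 to the gene end 208 tags became 283, 1.66 (1.38 to 1.99), and the listed peaks of the gene went from 3 to 6. The interval of that stretch overlapped that of the TSS window, and intron 1 gave 1.19 (0.785 to 1.815). Counting error thus did not separate the start from the inside of the gene. Of the 2 annotated starts near the 3′ end of Kdm5c, both with LPS peaks only, that at 36786 bp had 24 and 37 tags, 1.88 (1.09 to 3.28), and that at 38893 bp 20 and 36, 2.19 (1.24 to 3.999).

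Kdm5b (chr1:136456748-136529454, plus strand, 72.7 kb), its autosomal relative, had the lowest body density of the 8 genes. Its body held 147 untreated tags, 129 after LPS and 334 in input, 0.265, 0.284 and 0.610 normalised tags per kb. LPS over untreated gave 1.07 (0.838 to 1.36), not separated from 1 by counting error. The body was 0.435 times input in untreated cells, and 0.833 times input (0.681 to 1.01) when scaled to tags outside peaks, which make up 49.9% of untreated Ser5 tags and 95.5% of input tags. Its start was nevertheless marked by a peak in both lists, with 30, 35 and 8 tags in the TSS window and a ratio of LPS to untreated of 1.42 (0.848 to 2.40). At this depth a change of Kdm5b at the start could not be told from none.

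Other genes of histone methylation were taken as a list of 60 and read with the same rule. Over the gene body 4 of the 60 rose by the rule of size and 2 fell, or 6.67% and 3.33% against 5.83% and 11.3% of coding genes, and the median ratio of 0.869 was close to the 0.874 of all genes. In the TSS window 1 of 58, Aebp2, was higher, against 5.70% of coding genes, and Kdm1b, Whsc1 and Smyd3 were lower, against 14.0%. The median there was 0.871, against 0.834 of all coding genes tested. The highest body ratios were those of Setdb2 (an H3 lysine 9 methyltransferase gene) at 2.88 with 241 and 569 tags, Aebp2 at 2.47 with 457 and 927, Jarid2 at 2.33 with 1393 and 2665, Mll1 at 2.11 with 690 and 1197, and Setd1b at 1.74 with 691 and 984. Aebp2 and Jarid2 encode accessory subunits of PRC2, and Mll1 and Setd1b encode H3 lysine 4 methyltransferases.

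Among the lowest were Phf1, a gene for another PRC2-associated protein, at 0.332 with 202 and 55 tags, and Kdm1b, a flavin-dependent H3 lysine 4 demethylase gene, at 0.490 with 373 and 150. Setdb1 at 0.513, Whsc1 at 0.570 and Smyd3 at 0.606 followed. Of the core PRC2 subunits that work with EZH1 and EZH2, Eed went from 577 to 346 body tags (0.731), Suz12 from 349 to 289 (1.01) and Rbbp4 from 317 to 184 (0.707). The 9 PRC2 genes thus held both the 2 accessory subunit genes with ratios above 2 and the gene of the list with the lowest ratio, around a median of 0.818. The 5 partners of KDM2B in variant PRC1 (Pcgf1, Ring1, Rnf2, Bcor and Rybp) ran from 0.665 to 1.53 with none past the rule of size, while the 14 other demethylase genes had a median of 0.939 and 1 lower, Kdm1b.

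**Figure D5:**
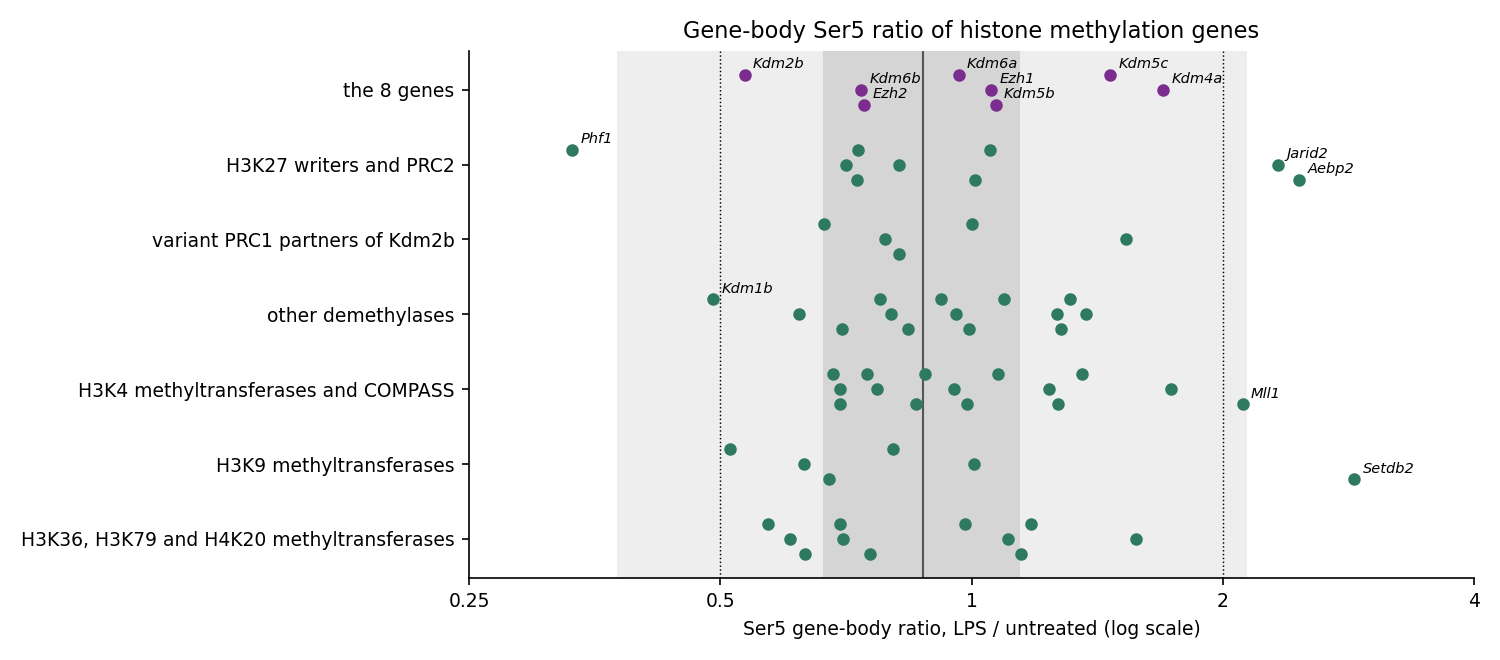
Gene-body ratio of normalised Ser5 tags after LPS to untreated (x axis, log scale) for the 8 genes and for 60 other histone methylation genes by group; each point is 1 gene, shading and the solid line give the spread and median of all coding genes, and dotted lines mark 0.5 and 2. The 8 genes all lie between the dotted lines, and 6 of the 60 lie outside.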

How the data were processed

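Ser5 Pol_II ChIP-Seq of untreated and LPS-treated macrophages and input DNA, 1 library each, were used as the aligned tags and peak lists that were deposited. The authors trimmed the reads, aligned them to mm9 with Bowtie (unique matches), and called peaks with MACS in either Ser5 library over input. Versions are not given in the sources used here. The methods give the trimmed lengths of both Ser5 libraries the other way round from the files, and the labels were followed. In the deposited peak lists the score is minus 10 times log10 of the MACS p-value, used only to select peaks. Tags on chromosomes 1 to 19 and X were counted by their 5′ end, duplicates kept, and a 1-based reading of the files was assumed. Gene records came from GENCODE M1.

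A gene was called at a ratio of at least 2 or at most 0.5 with at least 10 Ser5 tags, with a count of 0 set to 0.5. Ratios have exact intervals conditional on the sum, counts exact Poisson and shares Wilson intervals, all at 95% and for counting error only, since PCR copies are not independent molecules. Annotated starts within 500 bp were merged, and a peak counted with an overlap of 1 bp.

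The 8 genes, the list of 60 and the other lists were chosen with earlier results of these data known. Named are the 8 genes, genes overlapping them or within 20 kb of Kdm6b, the 5 highest and 5 lowest of the list, the 5 most like Kdm6b and 5 genes that check the labels; Eed, Suz12, Rbbp4 and the PRC1 partners were added after their values were seen. Alternatives were 1 tag per position, 5′ ends moved 75 bp, scaling to tags outside peaks, tags at unique 30-base sequences, and other windows and limits. Counting, intervals and calls were tested on simulated data. The software was Python 3.11.15, matplotlib 3.10.9, numba 0.67.0, scipy 1.17.1, pandas 2.3.3 and numpy 2.4.6.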

Additional observations from a re-analysis of the deposited data

How the results depend on the processing

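With 1 library per condition no replicate could be left out, and depth limits the start of Kdm6b and of Kdm5b most. No paired analysis was possible because each condition had a single library. Over 6 alternatives the body ratio of Kdm6b ran from 0.736 to 0.794, and over 7 its TSS ratio ran from 0.381 to 0.522, all below 1. For Kdm6b the 5′ end of the record is the main TSS, so that alternative repeats 0.381. The 308 alternative values include counts and uncalled ratios, for which no reversal was defined. No ratio past the rule of size moved to the opposite side of 1. Some uncalled ratios did cross 1, such as the body of Kdm6a, from 0.965 to 1.04. TSS ratios to input moved more, most for Kdm2b after LPS, from 1.32 to 19.04. Of 91 alternative ratios of the other 7 genes, 88 lay within the interval of the reported value. The 3 others were the Kdm2b body from 1 kb past the main TSS (0.596), Ezh2 likewise (0.864), and the Kdm2b start taken at the 5′ end of its record (0.830). At 1.5 times in place of 2, 1 of the 8 genes was higher (Kdm4a) and 1 lower (Kdm2b) over the body, and 1 higher (Kdm4a) and 3 lower (Kdm6b, Kdm2b, Ezh2) at the TSS. The share of all coding genes at 1.5 times was not counted, so these counts are not read as a result. The quartiles of all coding genes tested were 0.665 and 1.141 over the body and 0.628 and 1.075 at the TSS. With TSS windows of 500 bp and of 2 kb each side, 1 gene, Kdm2b, was at least 2 times lower, and with the 5′ end of the record as start 1, Kdm6b. In the list of 60, 1 gene in place of 2 was at least 2 times lower over the body with 1 tag per position, with scaling outside peaks and without stretches in another gene, since Kdm1b left. With the body from 1 kb downstream 5 were higher and 2 lower. A TSS peak was found for 6 to 7 genes under stricter peak rules. Peak regions and further starts of Kdm6b and Kdm2b, and the shares in the first kb, were added after seeing the data, and all 28 of their alternatives stayed within the reported interval or count.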
